A study of Homo sapiens with 9 samples.

Results

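The Toll-like receptors, their adaptor MYD88 and the IRAK kinases were examined as a group of 10 genes, taken by symbol from the 60656 rows of the count table. TLR1, TLR6, TLR7, TLR9 and TLR10 are receptors, MYD88 is the adaptor, IRAK4, IRAK1 and IRAK2 are kinases, and IRAK3 is the inhibitory member of the kinase family. All 10 had a row, and 9 passed the filter on low counts in every comparison. The exception was TLR9, which had no counts in any library.

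The cells were RIVA, an established human lymphoma line of the ABC-DLBCL type (diffuse large B-cell lymphoma with the profile of activated B cells). They carried a tetracycline-inducible lentiviral construct that was empty (vector) or encoded BCL10 S136X, a truncation, or BCL10 R58Q, a missense change. All 3 groups, vector included, received 200 ng/mL doxycycline for 24 h, and each group had 3 libraries described by the study as biologic replicates. The mutant proteins were expressed on top of the line's own BCL10, so the vector cells are a control for induction and not for a wild-type BCL10 construct.

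Toll-like receptors bind molecules typical of microbes, at the cell surface (TLR1, TLR6, TLR10) or inside endosomes (TLR7, TLR9, which recognize nucleic acids). MYD88 joins the activated receptor to IRAK4, which recruits and phosphorylates IRAK1 or IRAK2, and the signal then passes through TRAF6 and the TAK1 kinase to NF-kB. BCL10 reaches NF-kB by a different route, with MALT1 below the B-cell receptor. In ABC-DLBCL both routes are known sources of NF-kB activity, and the levels of the first were compared here after mutants of the second were induced.

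Total counts ranged from 28047713 to 33122267 per library. BCL10 was 13.4-fold higher with S136X and 10.8-fold higher with R58Q than with vector, each with no overlap between libraries, and counts from the construct and from the line's own gene cannot be told apart. The 5 B-cell markers (MS4A1, CD79A, CD79B, PAX5, CD22) summed to 2298 to 3003 CPM (the count scaled to a common library size), whereas 4 T-cell, 3 NK-cell and 4 monocyte markers stayed at or below 0.558 CPM per list. Of 3 markers of plasmacytoid dendritic cells, a cell type rich in TLR7 and TLR9, CLEC4C was at 0 in all 9 libraries, LILRA4 reached 1 count, and IL3RA made up the rest. That list summed to 1.501 to 2.17 CPM in vector, 0.351 to 1.16 in S136X and 0.398 to 1.21 in R58Q. Fibroblast markers, mostly COL1A1, summed to 5.72 to 8.04 CPM in vector and to 12.0 to 18.1 CPM in the mutants; the part of either list in the results was not tested. The R58Q columns carry a later date in their names than the other 6, so R58Q and that date cannot be told apart.

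Among the surface receptors, TLR1 and TLR6 are neighbouring genes on the minus strand of chromosome 4 (GRCh38, TLR1 at chr4:38790677-38856817 and TLR6 at chr4:38823715-38856817), with TLR10 beside them at chr4:38772238-38782990. Their transcripts are partly alike, which bears on how reads are assigned. TLR1 and TLR6 share 57 exonic bases, and their coding sequences hold an identical run of 218 bases. Of the 2259 windows of 100 bases in the TLR1 coding sequence, 119 (5.27%) occur unchanged in TLR6; no such window of either occurs in TLR10. The run is printed in capitals with 20 coding bases on each side in lower case, read 5′ to 3′ on the minus strand (chr4:38797216-38797473 for TLR1 and chr4:38827843-38828100 for TLR6), since a read inside the capitals cannot be assigned to either gene.
TLR1: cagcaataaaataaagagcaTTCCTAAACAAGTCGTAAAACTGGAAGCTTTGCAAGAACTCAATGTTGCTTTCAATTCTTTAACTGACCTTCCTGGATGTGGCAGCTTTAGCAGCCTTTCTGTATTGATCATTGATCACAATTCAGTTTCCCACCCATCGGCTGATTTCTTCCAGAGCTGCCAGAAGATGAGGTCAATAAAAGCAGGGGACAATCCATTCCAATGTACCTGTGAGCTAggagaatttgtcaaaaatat
TLR6: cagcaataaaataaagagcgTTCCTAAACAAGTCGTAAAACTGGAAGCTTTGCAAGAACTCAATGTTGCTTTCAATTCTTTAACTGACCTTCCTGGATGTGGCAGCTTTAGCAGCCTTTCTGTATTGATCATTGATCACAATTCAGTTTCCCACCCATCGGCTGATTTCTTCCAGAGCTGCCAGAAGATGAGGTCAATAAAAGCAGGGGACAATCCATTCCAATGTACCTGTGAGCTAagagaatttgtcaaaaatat

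For the adaptor and the most abundant kinase, the 250 bases before the RefSeq gene start (GRCh38.p14) are shown because both genes passed an adjusted p of 0.05 with R58Q. RefSeq promoter windows, from 250 bases before to 50 after the start, were matched for 7 of the 10 genes; TLR1, TLR7 and TLR10 had no entry. The MYD88 window (chr3:38138411-38138660, plus strand) holds the interferon response letters, GAAA then any 2 bases then GAAA, from position -61 relative to the start, and the overlapping STAT-type letters TTCNNNGAA from position -67. The capitals mark the joint stretch of both motifs. The deposited counts locate MYD88 from chr3:38138478, before the RefSeq start, so both motifs lie inside the gene as located there. The stretch of IRAK1 (chrX:154019903-154020152, minus strand) holds neither.
MYD88: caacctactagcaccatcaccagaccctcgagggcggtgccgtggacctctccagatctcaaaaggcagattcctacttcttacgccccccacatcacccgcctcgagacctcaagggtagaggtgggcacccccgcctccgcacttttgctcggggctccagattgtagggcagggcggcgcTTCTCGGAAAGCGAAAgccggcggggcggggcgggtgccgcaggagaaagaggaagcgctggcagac
IRAK1: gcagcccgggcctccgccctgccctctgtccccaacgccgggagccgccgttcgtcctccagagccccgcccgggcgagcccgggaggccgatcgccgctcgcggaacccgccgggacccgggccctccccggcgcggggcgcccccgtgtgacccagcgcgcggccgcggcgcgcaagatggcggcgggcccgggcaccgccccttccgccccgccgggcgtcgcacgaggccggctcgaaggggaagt
Searched on both strands, the interferon response letters occur in 3.57% and TTCNNNGAA in 7.66% of 35116 RefSeq promoter windows of the same length. MYD88 held each of them, and the other 6 matched genes held neither. The NF-kB motif, present in 5.91% of windows, was in none of the 7. A match of letters is a description of the sequence and not a site of binding.

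Levels between genes were compared as CPM per kilobase of exon. In vector cells IRAK1 was the highest at 45.2 ± 2.89 CPM per kilobase (SD, n = 3), followed by MYD88 at 35.2 ± 1.68 and TLR10 at 18.9 ± 1.57. IRAK4 stood at 5.84 ± 0.400, TLR6 at 4.28 ± 0.315, TLR1 at 1.66 ± 0.174 and TLR7 at 0.851 ± 0.0709 CPM per kilobase. IRAK3 (0.254 ± 0.0606) and IRAK2 (0.212 ± 0.0169) were the lowest of those detected. The libraries of each gene lay apart from those of the next in this order, except for IRAK3 and IRAK2. In both mutant groups the libraries of TLR1 and TLR7 also overlapped, whereas in vector they did not.

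**Figure D1:**
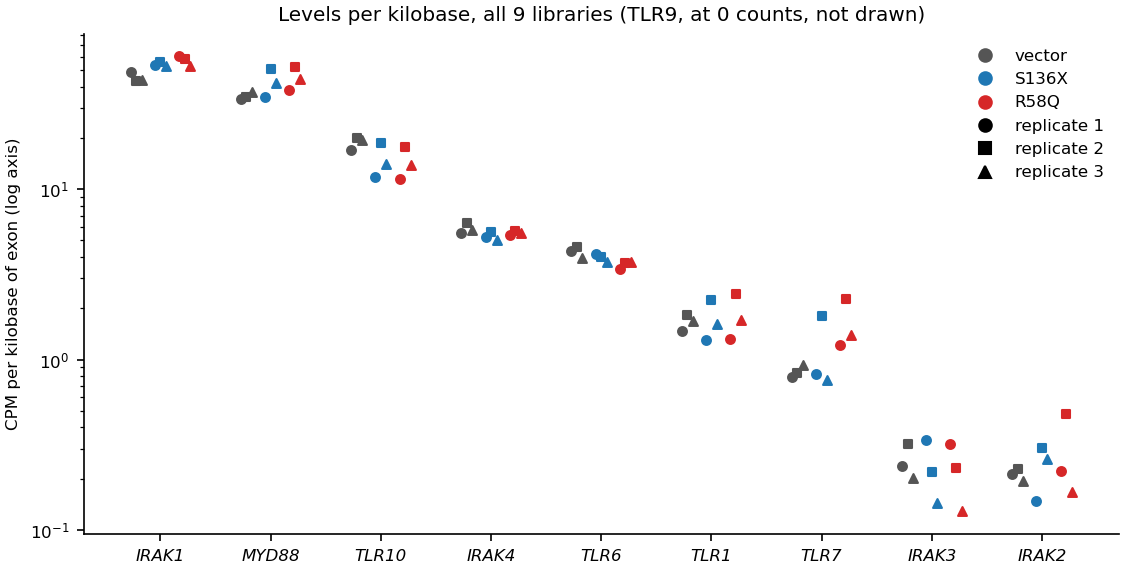
Level of each gene in CPM per kilobase of exon (log axis) in the 9 libraries, coloured by group and shaped by replicate number. IRAK1, MYD88 and TLR10 lead in every group, TLR7 moves from 0.851 in vector towards the level of TLR1 in R58Q (1.62 against 1.81), and IRAK2 and IRAK3 are the lowest of those detected.

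Among the members, the summed level of each family was dominated by a single gene. TLR10, the surface receptor without a settled ligand, made up 65.1% to 74.8% of the summed Toll-like receptor level per kilobase over the 5 receptors across libraries. TLR7 made up 3.08% to 8.70% of it. That sum takes TLR9 as 0, although its absence and unassigned reads cannot be told apart. It also leaves out TLR2 and TLR4, which are not members and stood at 1.34 and 0.886 CPM per kilobase in vector. IRAK1 made up 86.3% to 91.0% of the summed IRAK level, and IRAK2 0.250% to 0.744%.

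Each mutant was then compared with vector by edgeR's quasi-likelihood test over all genes that passed the filter. A gene was called at a Benjamini-Hochberg adjusted p below 0.05 and a change of at least 1.5-fold. With S136X, 0 of the 9 tested members were called, where 3.87% of the 15530 genes tested were. With R58Q, 1 of 9 was called, where 7.63% of 15435 genes were. At an adjusted p below 0.05 and any fold, S136X gave 1 of 9 members (IRAK1) beside 10.1% of all genes, and R58Q gave 3 of 9 (TLR7, MYD88, IRAK1) beside 21% of all genes. All of these were higher in the mutant. The libraries of mutant and vector did not overlap for 1 of 9 members with S136X (31.3% of all genes) and for 4 of 9 with R58Q (TLR7, MYD88, IRAK1 and TLR6, 40.3% of all genes). At an unadjusted p below 0.05 there were 3 members with S136X and 5 with R58Q, against 26.7% and 36.1% of all genes. The members' median log2 fold change was 0.05 with S136X and 0.12 with R58Q, next to -0.02 and -0.03 over all genes. Both comparisons used the same 3 vector libraries.

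Libraries with the same replicate number varied together across groups, so a fit with the replicate number as a block was also made. This pairing was inferred from these data and was weak for vector replicate 2. For the members, its values are given beside a result where they cross the adjusted p threshold. With the block, 3 of 9 members passed an adjusted p of 0.05 at any fold with S136X (24.7% of all genes) and 5 of 9 with R58Q (35.2% of all genes), and the members called at 1.5-fold were again 0 and 1, beside 6.53% and 10.7% of all genes.

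**Figure D2:**
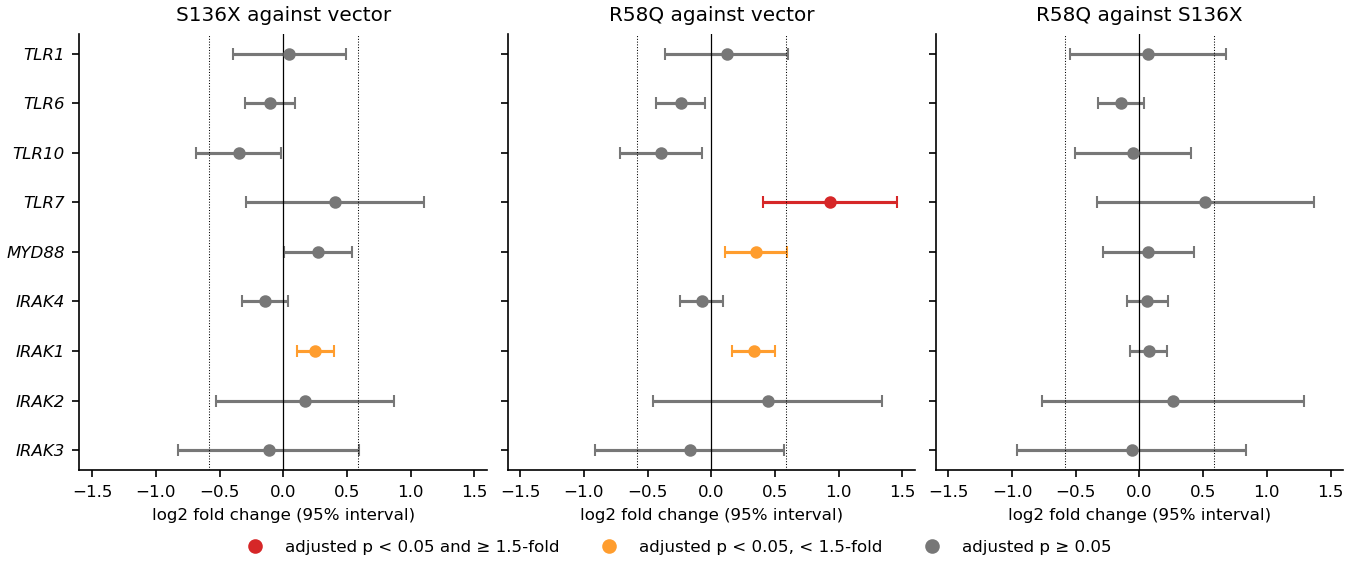
Log2 fold change with its 95% interval (edgeR, unblocked, n = 3 libraries per group) for the 9 tested genes in 3 comparisons; dotted lines mark 1.5-fold. TLR7 with R58Q (0.93) is the only red point, and IRAK1 in both mutants and MYD88 with R58Q are orange, below 1.5-fold.

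TLR7, the endosomal receptor for single-stranded RNA, was the only member called. In vector its counts were 138, 143 and 164 in replicates 1 to 3. In S136X they were 126, 301 and 112, and in R58Q 189, 353 and 236. On the CPM scale the vector libraries held 4.10, 4.37 and 4.83, and the R58Q libraries 6.37, 11.8 and 7.22. All 3 R58Q libraries therefore lay above all 3 vector libraries, whereas S136X overlapped vector, with a single library, replicate 2 at 9.33 CPM, above it and the others at 4.31 and 3.93 CPM. With R58Q the log2 fold change was 0.93 (SE 0.230, 95% interval 0.40 to 1.46), a 1.91-fold higher level, at an edgeR adjusted p of 0.0248. With S136X it was 0.41 (SE 0.308), at an edgeR adjusted p of 0.442.

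The TLR7 call was lost when any 1 of the 3 vector libraries was left out, and kept when any 1 R58Q library was. Without R58Q replicate 1, 2 or 3 the edgeR adjusted p was 0.00748, 0.035 and 0.0425. The edgeR adjusted p rose to 0.0602, 0.0879 and 0.0590 when vector replicate 1, 2 or 3 was left out, at log2 fold changes of 0.89, 0.93 and 0.997. It was 0.0684 when all 9 libraries shared an estimate of spread. Without replicate 2 of both groups, an alternative chosen after seeing the data, TLR7 was 0.61 higher on the log2 scale in R58Q with an edgeR adjusted p of 0.129. With S136X, leaving out its replicate 2 turned the direction, to -0.093 on the log2 scale.

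TLR9, the endosomal receptor for unmethylated CpG DNA, had 0 counts in all 9 libraries. At these depths 3 counts, the limit that a count of 0 allows, correspond to 0.0883 to 0.105 CPM per library, for counting error only. Its gene (chr3:52221080-52226163, minus strand) shares 3341 of its 3870 exonic bases (86.3%) on the same strand with AC097637.1, a readthrough transcript with the upstream gene TWF2. AC097637.1 also had 0 counts throughout, whereas TWF2 had counts in every library. Counting programs often discard reads that fit several genes. Of 295 protein-coding genes with fewer than 10 exonic bases of their own, 95.3% were at 0 in all libraries, against 19.4% of 19481 genes with 100 or more. TLR9 has 529 such bases, and of the 189 genes that share 80% or more of their exons and keep at least 100 bases, 32.3% were at 0. Absence of the TLR9 transcript and unassigned reads cannot be told apart from these counts.

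TLR10 counts were 2427, 2766 and 2786 in vector, 1453, 2520 and 1685 in S136X, and 1439, 2231 and 1916 in R58Q. The CPM values were 72.0, 84.5 and 82.0 in vector, 49.7, 78.1 and 59.1 in S136X, and 48.5, 74.5 and 58.6 in R58Q. In each mutant, replicates 1 and 3 lay below every vector library and replicate 2 lay within the vector range. The log2 fold change was -0.35 (SE 0.147) with S136X and -0.40 (SE 0.142) with R58Q, at edgeR adjusted p of 0.169 and 0.0822. Against the vector library of the same number, TLR10 was lower in all 3 pairs of each mutant, with log2 ratios of -0.54, -0.11 and -0.47 in S136X and of -0.57, -0.18 and -0.48 in R58Q. With the replicate block the edgeR adjusted p was 0.00725 (log2 fold change -0.37) and 0.00314 (-0.41), below 1.5-fold in both. Leaving out single libraries moved the log2 fold change between -0.53 (edgeR adjusted p = 0.0235, without S136X replicate 2) and -0.21 (0.313, without S136X replicate 1). With R58Q it moved between -0.57 (edgeR adjusted p = 0.0127, without R58Q replicate 2) and -0.25 (0.155, without R58Q replicate 1).

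TLR6, which pairs with TLR2 for diacylated lipopeptides, had 26.2, 27.5 and 23.8 CPM in vector, 25.2, 24.2 and 22.7 in S136X, and 20.6, 22.3 and 22.6 in R58Q. The R58Q libraries did not overlap vector, but lay close below its lowest library. The log2 fold change was -0.10 (SE 0.0859) with S136X and -0.24 (SE 0.0842) with R58Q, at edgeR adjusted p of 0.485 and 0.0752, and 0.0373 for R58Q with the replicate block. TLR1, the partner of TLR2 for triacylated lipopeptides, had 6.71, 8.28 and 7.59 CPM in vector, 5.91, 10.1 and 7.30 in S136X, and 5.97, 10.9 and 7.71 in R58Q. Both mutants spanned the vector range on both sides. The log2 fold change of TLR1 was 0.05 with S136X (95% interval -0.40 to 0.49) and 0.12 with R58Q (-0.36 to 0.61).

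**Figure D3:**
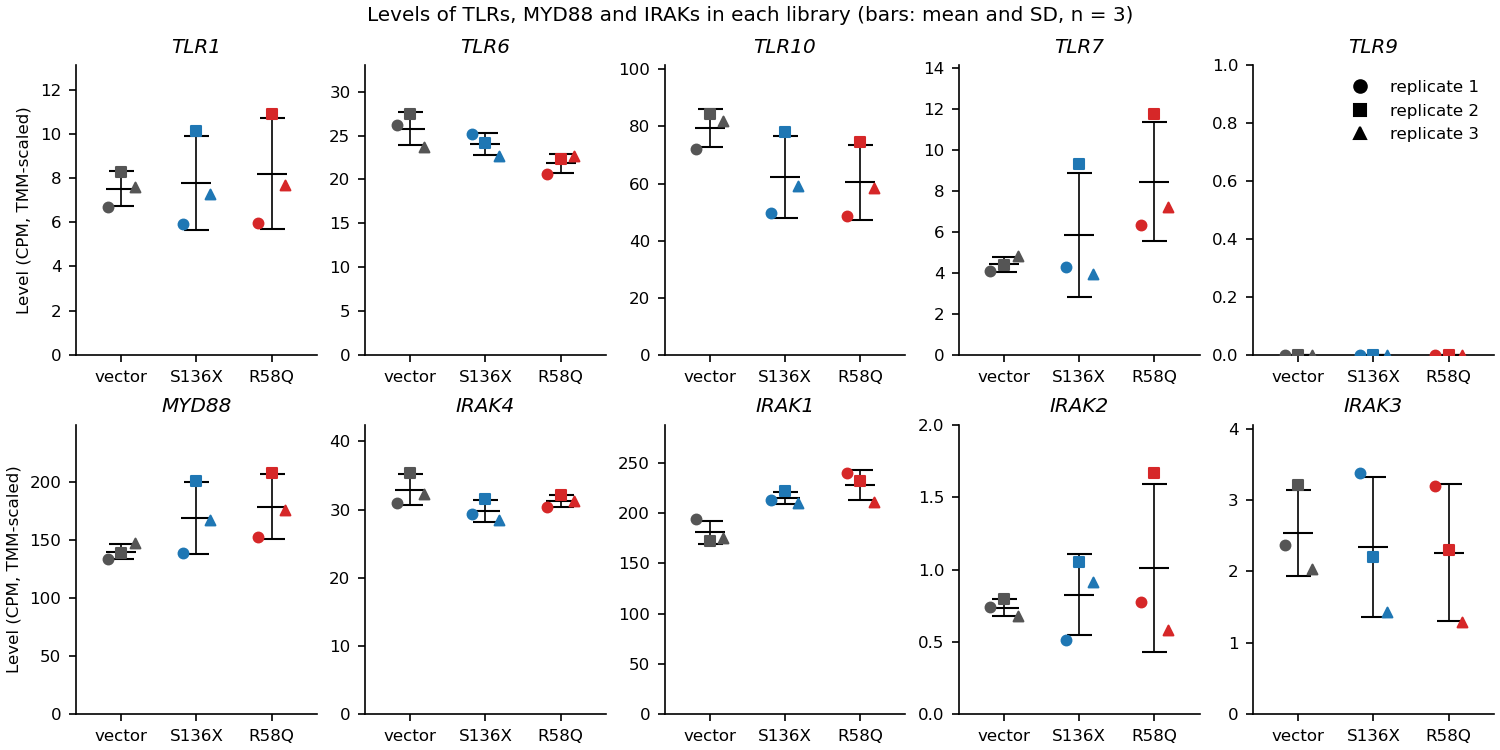
CPM of each gene by library (points, shaped by replicate number) with group mean and SD (bars, n = 3), each axis starting at 0. Replicate 2 is the highest S136X and R58Q library for TLR1, TLR10, TLR7, MYD88, IRAK4 and IRAK2, IRAK1 is higher in all 6 mutant libraries than in vector, and TLR9 is at 0.

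MYD88, the adaptor between receptor and kinases, had 4521, 4553 and 5009 counts in vector, 4076, 6489 and 4767 in S136X, and 4528, 6234 and 5745 in R58Q. Scaled to CPM these were 134, 139 and 147 in vector, 139, 201 and 167 in S136X, and 153, 208 and 176 in R58Q. The R58Q libraries all lay above vector, whereas S136X replicate 1 lay inside the vector range. The log2 fold change was 0.35 (SE 0.106, 1.27-fold) with R58Q, at an edgeR adjusted p of 0.0496. With S136X it was 0.27 (SE 0.118, 1.21-fold), at an edgeR adjusted p of 0.183, or 0.0403 with the replicate block. The R58Q value lay close to the threshold: the adjusted p was 0.0553 with limma-voom, 0.0862 with upper-quartile scaling, 0.106 with total counts and 0.0901 with all 9 libraries in 1 edgeR fit, against 0.0114 with DESeq2 and 0.00753 with the edgeR replicate block. Leaving out single libraries gave edgeR adjusted p from 0.00775 to 0.143 for R58Q, below 0.05 only without R58Q replicate 1, and it was 0.245 without replicate 2 of both groups.

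IRAK4, the kinase that binds MYD88 first, had 31.01, 35.4 and 32.3 CPM in vector, 29.3, 31.5 and 28.4 in S136X, and 30.4, 32.2 and 31.2 in R58Q. The groups overlapped, and the log2 fold change was -0.14 (95% interval -0.33 to 0.04) with S136X and -0.08 (-0.24 to 0.09) with R58Q.

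IRAK1, the kinase that IRAK4 phosphorylates, was higher in all 6 mutant libraries than in any vector library. Its counts were 6540, 5653 and 5966 in vector, 6230, 7164 and 6004 in S136X, and 7128, 6946 and 6899 in R58Q. Its CPM values were 194, 173 and 176 in vector, 213, 222 and 211 in S136X, and 240, 232 and 211 in R58Q, with a gap between 194 and 211 CPM. The log2 fold change was 0.25 (SE 0.0645, 1.19-fold) with S136X, at an edgeR adjusted p of 0.0420. With R58Q it was 0.33 (SE 0.0729, 1.26-fold), at an edgeR adjusted p of 0.0163. Against the same-numbered vector library, IRAK1 was higher by 0.13 to 0.36 on the log2 scale in S136X and by 0.27 to 0.42 in R58Q. Without single libraries the edgeR adjusted p ranged from 0.0211 to 0.178 with S136X and from 0.0119 to 0.0784 with R58Q, at log2 fold changes that stayed positive. With S136X it passed 0.05 only without vector replicate 1, and with R58Q it was lost without vector replicate 2 or 3. With S136X the edgeR adjusted p was also 0.0604 with upper-quartile scaling and 0.0747 with total counts. Without replicate 2 of both groups it was 0.348 with S136X and 0.160 with R58Q.

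IRAK2, which can act beside IRAK1, and IRAK3 were low in these libraries. IRAK2 counts were 25, 26 and 23 in vector, 15, 34 and 26 in S136X, and 23, 50 and 19 in R58Q. IRAK3, which dampens the signal, had 80, 105 and 69 counts in vector, 99, 71 and 41 in S136X, and 95, 69 and 42 in R58Q. The groups overlapped for both genes. The 95% intervals were wide, from -0.45 to 1.34 for IRAK2 and from -0.91 to 0.57 for IRAK3 on the log2 scale with R58Q. A 1.5-fold lower level of IRAK3 and a 1.5-fold higher level of IRAK2 lay inside these intervals.

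Beside the fold changes, the libraries showed a shared pattern by replicate number. In both mutants replicate 2 had the highest level of TLR7, MYD88, TLR1, TLR10, IRAK4 and IRAK2; in vector it was also the highest for TLR1, TLR10, IRAK4 and IRAK2, but not for TLR7 or MYD88. For TLR7 the log2 ratio to the same-numbered vector library was 0.07, 1.08 and -0.29 in S136X, and 0.63, 1.41 and 0.57 in R58Q. For MYD88 it was 0.05, 0.53 and 0.18 in S136X, and 0.19, 0.58 and 0.25 in R58Q. A list of 15 interferon-stimulated genes, which respond to interferon and include MX1, OAS2 and IFI44L, was summed beside these values. Its summed level was 333 to 593 CPM in vector, 519.6, 2105 and 1189 CPM in S136X, and 827, 2564 and 1759 CPM in R58Q, highest in replicate 2 of each mutant and above every vector library in 5 of the 6 mutant libraries. The list's ratios to the same-numbered vector library put the replicates of each mutant in the same order as the MYD88 ratios. The ratios of TLR1 and of TLR10, which was below vector in every pair, had that order too, so it was not particular to MYD88. TLR7 shared only the peak in replicate 2. In S136X replicate 3 it lay below every vector library, at 3.93 CPM, where the list lay above them. This list was chosen after seeing the data, and its part in the result for TLR7 and MYD88 was not tested.

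**Figure D4:**
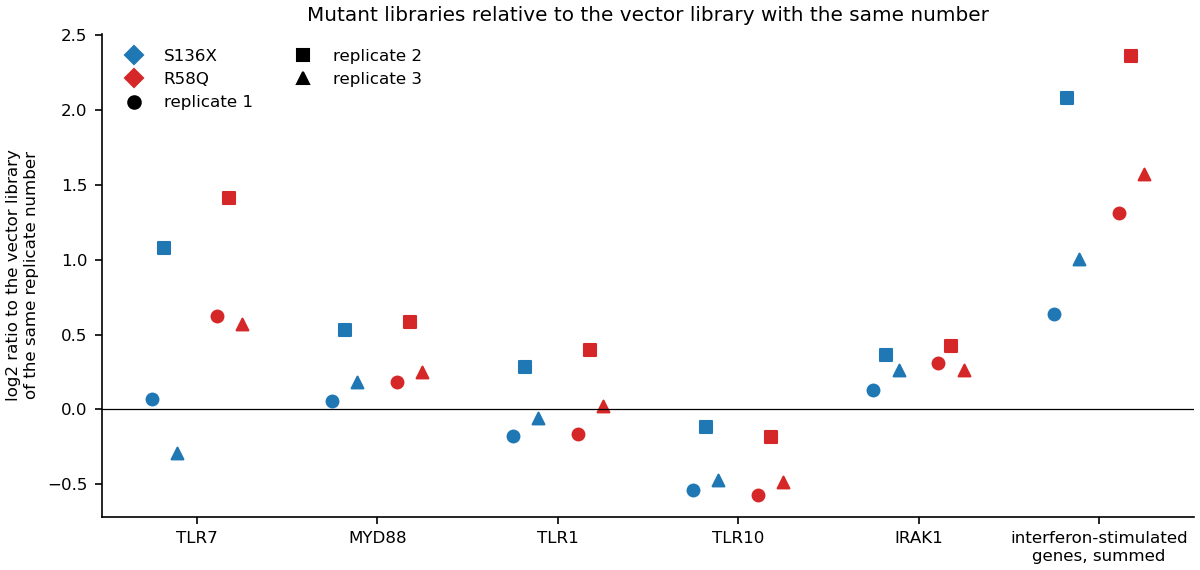
Log2 ratio of each mutant library to the vector library of the same replicate number (CPM plus 0.1), for 5 genes and for the summed level of 15 interferon-stimulated genes. Replicate 2 (squares) is the highest in both mutants for each of them; TLR7 spans -0.29 to 1.08 in S136X and 0.57 to 1.41 in R58Q, and TLR10 is below 0 in all 6.

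Over the 9 libraries, the log2 CPM of TLR7 and MYD88 had a Pearson correlation of 0.88, and of 0.87 after the group means were removed. TLR1 and TLR10 correlated at 0.70, and at 0.99 after the group means were removed. TLR10 and MYD88 correlated at 0.15 and, after removal, at 0.98. IRAK1 correlated at 0.59 with MYD88, 0.61 with TLR7 and -0.61 with TLR10. After removal these were -0.02, 0.20 and -0.09. These values describe 9 libraries that share replicate numbers and are given without a test. Among 15859 other genes, the level most like that of MYD88 over the 9 libraries was DDX60 (0.99), of TLR7 TPRKB (0.99), of TLR1 TGFBR2 (0.99), of TLR10 ENC1 (0.99) and of IRAK1 TOMM22 (0.99). Those for the others were PRRC1 for TLR6 (0.96), ANKRD61 for IRAK4 (0.96), RIN3 for IRAK2 (0.94) and GAD1 for IRAK3 (0.98). With 9 libraries and this many genes, high values of the best match are common to all members.

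The mutants were compared directly to ask whether a truncation and a missense change differ in these genes. R58Q libraries and S136X libraries did not differ at an edgeR adjusted p below 0.05 for any of the 9 members, where 0.533% of 15195 genes did, and 0 were called, where 0.434% were. At an unadjusted p below 0.05 the count of members was also 0. TLR7 was 0.52 higher in R58Q on the log2 scale (SE 0.367, 95% interval -0.33 to 1.37), an interval that runs from a lower to a higher level in R58Q. TLR7 was higher in R58Q than in the S136X library of the same number in all 3 pairs, and with the replicate block the edgeR adjusted p was 0.00190 at a log2 fold change of 0.54, below 1.5-fold. That pairing was inferred from these data and is not given by the labels. The R58Q columns also carry a later date than those of S136X, so the mutant and the date cannot be told apart. For IRAK1 the interval was -0.07 to 0.22, for IRAK4 -0.10 to 0.22, for TLR6 -0.33 to 0.04 and for MYD88 -0.29 to 0.43 on the log2 scale. TLR6 was the only member whose libraries did not overlap between the mutants, where 17% of all genes did not. The replicate block gave 1 of 9 members (TLR7) at an adjusted p below 0.05 and any fold, where it gave 14.6% of all genes.

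The rest of the pathway was read from a list of 47 genes, of which 38 passed the filter. With S136X, 5 were called higher (13.2% of those tested, beside 2.05% of all genes) and 1 lower (2.63%, beside 1.82%). With R58Q, 6 were called higher (15.8%, beside 4.09%) and 0 lower (beside 3.54%). The median log2 fold change of the list was 0.03 with S136X and 0.10 with R58Q. The list had been written with earlier results of these data known, and its count is not independent evidence of a direction. None of the other receptors that were tested (TLR2, TLR4, CD180) or of the IL-1 family receptors (IL1RAP, SIGIRR) was called.

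Among genes that end or limit the signal, TNFAIP3, which encodes the ubiquitin-editing enzyme A20, rose by a log2 fold change of 1.03 with S136X (edgeR adjusted p = 0.000278) and 1.36 with R58Q (edgeR adjusted p = 0.000141). Its level went from 125 ± 13.3 CPM in vector to 254 ± 5.84 and 321 ± 35.8 CPM (SD, n = 3). SOCS1, an inhibitor of cytokine signalling, rose from 1.83 ± 0.161 CPM to 3.58 ± 0.996 with S136X and 8.41 ± 1.01 with R58Q, a log2 fold change of 0.97 and 2.19. The remaining brakes TOLLIP, CYLD and TNIP1 were not called, although TNIP1 passed an edgeR adjusted p of 0.05 in both mutants at 1.30-fold, and TOLLIP (1.23-fold) and CYLD (1.37-fold) did so with R58Q. With the block TOLLIP also passed with S136X (edgeR adjusted p = 0.0222). NFKBIZ, an NF-kB response gene that encodes IκBζ, rose by 0.65 and 0.81 on the log2 scale, to 1.57-fold and 1.75-fold of vector.

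Among the interferon factors, IRF7, which acts below TLR7 and TLR9, rose by 1.25 with S136X (edgeR adjusted p = 0.0259) and 1.76 with R58Q (edgeR adjusted p = 0.00239) on the log2 scale. It went from 19.0 ± 3.19 CPM to 45.2 ± 19.7 and 64.7 ± 22.5 CPM. CXorf21, also named TASL, encodes an adaptor that links endosomal receptors to IRF5. It fell by 0.62 on the log2 scale with S136X (edgeR adjusted p = 0.0239), and its log2 fold change with R58Q was -0.39 (edgeR adjusted p = 0.103, or 0.0324 with the replicate block). SLC15A4, the endosomal transporter that holds TASL, had log2 fold changes of 0.30 with S136X (edgeR adjusted p = 0.0394) and 0.29 with R58Q (edgeR adjusted p = 0.0219), below 1.5-fold. IRF5 had a log2 fold change of 0.50 with R58Q (edgeR adjusted p = 0.00786), below 1.5-fold, and with S136X 0.20 (edgeR adjusted p = 0.226, or 0.0171 with the block). IRF8 had log2 fold changes of 0.16 and 0.26, at edgeR adjusted p of 0.346 and 0.0632, or 0.0345 and 0.00491 with the block. IRF3 did not pass an adjusted p of 0.05 in either mutant in either fit.

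Between the adaptor and NF-kB, 11 genes of the ubiquitin and TAK1 steps were tested and TAB2, which ties TAK1 to ubiquitin chains, was the only one called, at 0.61 with R58Q (edgeR adjusted p = 0.00158). With S136X it was 0.34 (edgeR adjusted p = 0.0281). TRAF6 had log2 fold changes of -0.02 and 0.10. TICAM2, an adaptor that bridges TLR4 to TICAM1, was called in both mutants, at 1.15 and 1.82. It held only 16 to 18 counts in vector, 34 to 36 in S136X and 49 to 66 in R58Q. Of its 3244 exonic bases, 82.2% lie in other genes on the same strand, among them the readthrough TMED7-TICAM2. Counting either strand, 3030 of these bases lie in other genes, so its level is uncertain.

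**Figure D5:**
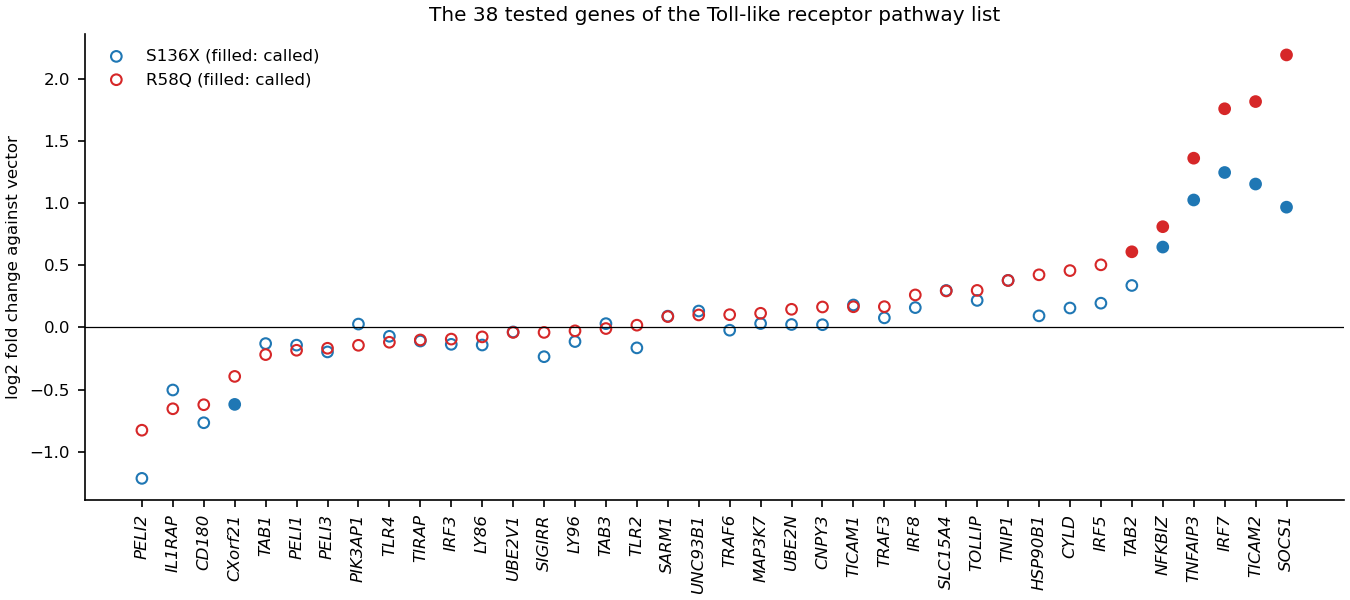
Log2 fold change against vector of the 38 tested genes of the pathway list in S136X (blue) and R58Q (red), ordered by R58Q; filled points were called. SOCS1, TICAM2, IRF7, TNFAIP3 and NFKBIZ are filled in both mutants, TAB2 with R58Q and CXorf21 with S136X, and the other 31 genes are open.

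Without replicate 2 of both groups, 1 gene of the list was called with S136X (beside 1.31% of all genes) and 6 with R58Q (beside 3.65%). Leaving out single libraries gave 2 to 5 called genes with S136X (3, 2 and 3 without vector replicates 1, 2 and 3, 3 without S136X replicate 1 and 2 without S136X replicate 3) and 5 to 7 with R58Q. Over all genes the calls without single libraries ranged from 1.75% to 4.41% with S136X and from 4.56% to 7.84% with R58Q. Between R58Q and S136X, 0 of the 38 were called, and 6 (15.8%) had an unadjusted p below 0.05, beside 11% of all genes. The replicate block called 2 of them, SOCS1 (1.22 higher in R58Q on the log2 scale, edgeR adjusted p = 7.09e-07) and TICAM2 (0.65, edgeR adjusted p = 0.0357), where it called 2.94% of all genes. SOCS1 had an edgeR adjusted p of 0.0635 without the block. The block also called CD180, a receptor-like surface protein of B cells, at -0.94 with S136X and -0.71 with R58Q, and PELI2, a ubiquitin ligase that acts on IRAK1, at -1.25 and -0.83, which brought the list to 8 called genes in each mutant (21.1%, beside 6.53% and 10.7% of all genes). Without the block the edgeR adjusted p was 0.384 and 0.311 for CD180 and 0.144 and 0.232 for PELI2. Libraries of both genes overlapped vector in both mutants. PELI2 held only 9 to 80 counts per library, and CD180 spanned 60 to 445 counts within S136X. At an adjusted p below 0.05 and any fold, the list had 9 genes with S136X (23.7%, beside 10.1% of all genes), 11 with R58Q (28.9%, beside 21%) and 0 between the mutants (beside 0.533%). With the block the list had 14, 20 and 11 genes (36.8%, 52.6% and 28.9%), beside 24.7%, 35.2% and 14.6% of all genes.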

How the data were processed

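RNA from 9 RIVA libraries (3 groups of 3) was sequenced by the study as single reads of 100 bases. The authors deposited a table of raw read counts for 60656 genes; the submitters' processing notes name cutadapt, STAR, Picard and hg38, while the counting program, its annotation and its use of strand are not given in the sources used here. A further 9 numeric columns, the authors' normalized values, were not used. One label gives the doxycycline unit as ng/uL, whereas the protocol and the study's methods give ng/mL.

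Counts were tested with edgeR 4.0.16 (R 4.3.3): filterByExpr (minimum count 10, minimum total 15), TMM scaling, the quasi-likelihood test on the 6 libraries of each comparison and Benjamini-Hochberg adjustment over all genes tested. A call needed an adjusted p below 0.05 and at least 1.5-fold. Each SE was taken from the F statistic (absolute log2 fold change over the square root of F). CPM values used TMM factors over all 9 libraries, and CPM per kilobase used exon lengths of GENCODE release 29 (GRCh38), whose identifiers cover 96.3% of the table. The code was tested on simulated data. Alternatives were DESeq2 1.42.0, limma-voom (limma 3.58.1), other scalings and filters, a joint fit, a replicate block and omission of single libraries.

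Same-numbered libraries deviated together in all 9 pairs between groups (correlation of deviations from group means 0.143 to 0.626, median 0.425). Other pairs had a median of -0.251 and a maximum of 0.169. Deviations from a group mean sum to 0 within the group, so the negative median is partly built in. Vector replicate 2 was weakly paired, at 0.143 with S136X replicate 2 and 0.163 with R58Q replicate 2, both below that maximum. The numbers were taken to pair the libraries. This pairing comes from the data, as the labels give only the numbers. Whether same-group libraries came from separate cultures is described only as biologic replicates, so p-values measure the spread between these libraries. Named genes were all members, BCL10, pathway genes called in at least 1 comparison and, for each member, the gene with the highest correlation; CD180, PELI2 and other genes named without a call were named after their values were seen. Members and lists were chosen with earlier results of these data known. A gene of the B-cell marker list and a gene of the interferon-stimulated list are not reported here and are left out of the sums.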

Additional observations from a re-analysis of the deposited data

How the results depend on the processing

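The number of members called with S136X was 0 in every alternative except that without a fold threshold (1). With R58Q it was 1, became 3 without a fold threshold, 0 with all 9 libraries in 1 fit and 0 without replicate 2 of both groups, and ranged from 0 to 1 when single libraries were left out; the TLR7 value behind it was 0.61 to 1.11 on the log2 scale over all alternatives. In the direct comparison it stayed at 0 in all 16 alternatives. Pathway genes called with S136X (6) ranged from 2 to 5 without single libraries and were 1 without replicate 2 of both groups; with R58Q (6) they were 11 without a fold threshold; between the mutants (0) they were 1 with DESeq2, with no filter and with all 9 libraries in 1 fit, and 2 with the replicate block. The replicate block, which follows the pairing inferred from these data, moved no other count of called members or pathway genes by more than 1.5 times. It kept TLR7 called with R58Q (0.89 on the log2 scale, edgeR adjusted p = 0.00418).

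Directions turned only for changes that had not passed the threshold, 27 values in all. With S136X and the total counts as scaling, TLR1 was -0.0044 on the log2 scale. When single libraries were left out, S136X against vector ranged from -0.18 to 0.21 for TLR1, -0.093 to 0.64 for TLR7, -0.038 to 0.42 for IRAK2 and -0.47 to 0.15 for IRAK3, and R58Q against vector from -0.14 to 0.32 for TLR1, -0.12 to 0.73 for IRAK2 and -0.49 to 0.12 for IRAK3. Between the mutants the ranges were -0.19 to 0.30 for TLR1, -0.23 to 0.15 for TLR10, -0.053 to 0.21 for MYD88, -0.30 to 0.55 for IRAK2 and -0.39 to 0.29 for IRAK3. Without replicate 2 of both groups, S136X against vector gave -0.12 for TLR1, -0.12 for TLR7 and 0.13 for IRAK3, R58Q against vector gave -0.0645 for TLR1, -0.0696 for IRAK2 and 0.0192 for IRAK3, and R58Q against S136X gave -0.081 for IRAK2. The cause was not tested. IRAK2 and IRAK3 held only 15 to 105 counts per library.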
